A study of Homo sapiens with 5 samples.

Results

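The genes described here were MAP1B and 7 further genes for microtubule-associated proteins (MAP1A, MAP1S, MAP2, MAP4, MAP7, MAPT and STMN1), measured by poly(A) RNA-seq in Ishikawa cells, an established line of endometrioid endometrial cancer. The 8 genes were chosen by name, with MAP1B selected on its measured difference between the culture groups, so their levels and fold changes are given as a description with no test. Each name matched 1 of 57992 genes in the count table, and all 8 passed the filter on low counts, as 34658 genes did. In 2 libraries the cancer cells had shared medium for 3 days with adipocytes differentiated from preadipocytes with insulin, dexamethasone and IBMX, which sat in the upper chamber over a membrane of 0.4 µm pores. In 2 other libraries that co-culture also contained EX527, named in the labels as an inhibitor of SIRT1, with no dose stated. The last library came from Ishikawa cells grown alone. Monoculture therefore has n = 1, and no group received EX527 without adipocytes. All groups are 1 cell line, and the labels do not say that replicates came from separate cultures, so p-values measure the spread between these libraries, which may be technical.

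Microtubules are polymers of alpha- and beta-tubulin that grow and shrink at their ends. Structural microtubule-associated proteins bind along the polymer and stabilise it, while stathmin (STMN1) holds free tubulin dimers and favours shrinkage. MAP1B, MAP2 and tau (MAPT) are best known from neurons, where MAP1B is prominent in growing axons, MAP2 in dendrites and tau in axons. MAP4 and MAP7 do related work in cells outside the nervous system, and stathmin is abundant in dividing cells.

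The libraries held 45653845 to 52269963 counted reads, at which 3 reads correspond to 0.053 to 0.0692 CPM, the read count scaled to a common library size by the trimmed mean of M-values (TMM). This floor covers counting error only. Co-culture replicates lay close together, with an SD of 0.112 for the log2 difference between them over 11232 well-read genes, against 0.605 between both EX527 replicates. EX527 replicate 1 stood apart, since 33325 genes reached 10 reads there against 26022 to 27103 in the others. The values of MAP1A, MAP1S, MAP4 and the gene list medians that move most without it are given both ways. Of 14 epithelial and endometrial markers 13 reached 1 CPM in some library, with PAX8 at 321 to 1201 CPM and KRT8 at 332 to 2674 CPM, while FOXA2 stayed at or below 0.742 CPM.

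The regulatory sequence upstream of MAP1B is shown with that of its relative MAP1S and of STMN1, because MAP1B was lowest and STMN1 highest in co-culture without EX527, while MAP1S is a close relative of MAP1B whose EX527 pair spanned the co-culture pair. Each line gives the 250 bases before the start of the canonical transcript, which lies inside the full gene span where other transcripts start earlier, 5′ to 3′ on the gene's strand, from RefSeq on GRCh38.p14, and capitals mark motifs found on either strand: the TATA box letters TATAAA, the GC box GGGCGG, the letters CCAAT bound by NF-Y, the E2F core TTTGGCGC, the E-box CACGTG and the cell cycle element TTTGAA.
MAP1B, chr5:72107225-72107474, plus strand: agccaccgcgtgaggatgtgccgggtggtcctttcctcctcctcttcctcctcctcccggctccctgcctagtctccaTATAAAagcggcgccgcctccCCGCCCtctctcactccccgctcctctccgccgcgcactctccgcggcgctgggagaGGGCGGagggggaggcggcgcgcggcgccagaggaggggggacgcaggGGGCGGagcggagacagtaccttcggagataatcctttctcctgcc
MAP1S, chr19:17719230-17719479, plus strand: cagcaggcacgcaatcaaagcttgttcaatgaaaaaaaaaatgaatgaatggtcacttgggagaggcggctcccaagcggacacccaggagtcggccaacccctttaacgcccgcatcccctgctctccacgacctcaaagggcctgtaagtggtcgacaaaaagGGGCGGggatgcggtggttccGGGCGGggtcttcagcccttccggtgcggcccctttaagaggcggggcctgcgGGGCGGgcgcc
STMN1, chr1:25906420-25906669, minus strand: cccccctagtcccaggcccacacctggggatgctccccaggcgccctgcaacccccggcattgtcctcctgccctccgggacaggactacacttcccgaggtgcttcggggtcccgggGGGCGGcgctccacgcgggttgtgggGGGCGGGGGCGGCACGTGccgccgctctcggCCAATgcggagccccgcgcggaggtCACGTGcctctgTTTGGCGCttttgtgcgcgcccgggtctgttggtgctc
All 3 stretches were rich in G and C, at 70.0%, 61.6% and 73.2%, and each held 3 copies of GGGCGG, the letters of a GC box, which 42.6% of 35116 such RefSeq stretches contained. Only MAP1B of the 7 matched genes held TATAAA, found in 10.7% of all stretches. The MAP2 stretch lay 155285 bases from the start of its canonical transcript, so the canonical start of MAP2 was not read. STMN1 held TTTGGCGC, the core letters that E2F factors bind, which 0.55% of stretches contained. It also held 2 copies of CACGTG, an E-box found in 6.34%, the first of them touching a GGGCGG, and 1 CCAAT, found in 32%. TTTGAA stood in 13.3% of stretches and in none of the 3 shown. These matches describe letters and not bound sites.

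MAP1B (ENSG00000131711.14, chromosome 5, 72107234 to 72209565, GRCh38) had 12935 reads in monoculture, 1200 and 1387 in co-culture, and 8942 and 7146 in co-culture with EX527. On the CPM scale, monoculture stood at 298, the co-culture pair at 27.0 and 28.5 and the EX527 pair at 158 and 152. The 3 groups did not overlap, with co-culture lowest, EX527 co-culture between the others and monoculture highest. MAP1B was 10.75-fold lower in co-culture than in monoculture (log2 fold change -3.43, SE 0.21) and 5.59-fold higher with EX527 than in co-culture without it (2.48, SE 0.19). Against monoculture the EX527 libraries were 1.92-fold lower (-0.94, SE 0.21). Both replicate pairs were tight, at 27.7 ± 1.06 CPM (SD, n = 2) without EX527 and 155 ± 4.05 CPM (SD, n = 2) with it, and replicates differed by 1.06-fold and 1.04-fold. Leaving out EX527 replicate 1 gave 2.46 for EX527 against co-culture, and leaving out replicate 2 gave 2.55.

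**Figure D1:**
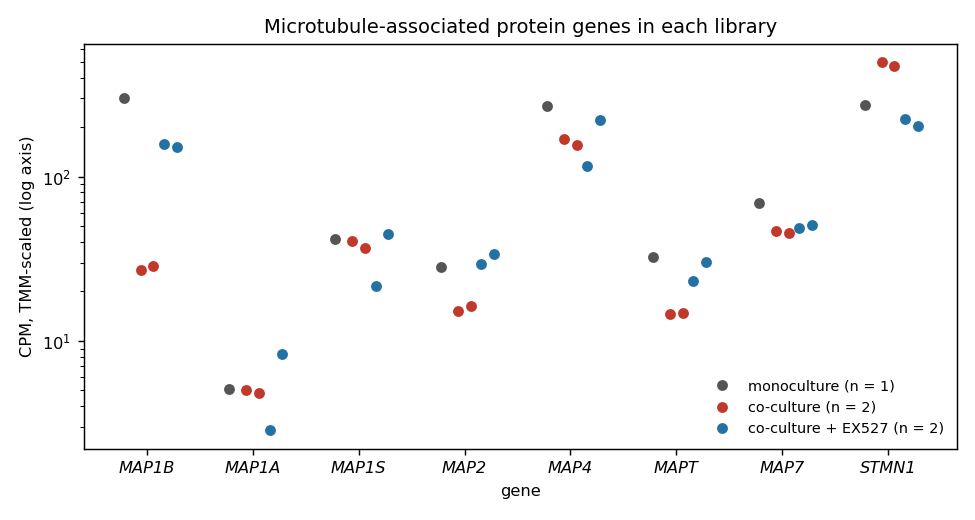
TMM-scaled CPM of the 8 genes on a log axis, with 1 point per library and colours for monoculture (n = 1), co-culture (n = 2) and co-culture with EX527 (n = 2). MAP1B ran from 27.0 CPM in co-culture to 298 CPM in monoculture, and STMN1 had its highest points in co-culture.

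The close relatives of MAP1B did not share this range. MAP1A, which like MAP1B is cut into a heavy and a light chain and is known from mature neurons (chromosome 15, 43510958 to 43531620), was read at 5.14 CPM in monoculture, 5.06 and 4.84 CPM in co-culture, and 2.86 and 8.30 CPM with EX527. MAP1S, the short and widely expressed member (chromosome 19, 17719242 to 17734513), was read at 41.9 CPM in monoculture, 40.6 and 36.9 CPM in co-culture, and 21.5 and 45.03 CPM with EX527. In both genes the EX527 replicates lay on either side of the co-culture pair, 2.90-fold apart for MAP1A and 2.10-fold for MAP1S. Their log2 fold changes for EX527 against co-culture were 0.15 (SE 0.54) and -0.23 (SE 0.38). They changed sign with the EX527 library used, at 0.75 and 0.22 without replicate 1 and at -0.74 and -0.81 without replicate 2. For co-culture against monoculture the values were -0.05 (SE 0.68) and -0.11 (SE 0.46). MAP1S shares exons with a long noncoding RNA on the opposite strand that itself held 545 to 756 reads per library, and the labels do not say whether reads were counted by strand, so reads of the pair may be mixed.

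The make-up of the MAP1 family was computed from reads divided by the length of all annotated exons. MAP1B made up 72.6% of the family's reads per kb in monoculture, 19.8% and 22.2% in co-culture, and 73.1% and 55.0% with EX527. MAP1S made up 25.9%, then 75.8% and 73.3%, then 25.3% and 41.4%, and MAP1A at most 4.45% in any library. With the length of the canonical transcript in place of all exons, the MAP1B shares were 65.6% in monoculture, 15.1% and 17.1% in co-culture and 66.3% and 47.1% with EX527. The family's summed level was 32.8 RPKM (CPM per kb of annotated exon) in monoculture, 10.9 and 10.2 in co-culture and 17.2 and 22.04 with EX527.

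**Figure D2:**
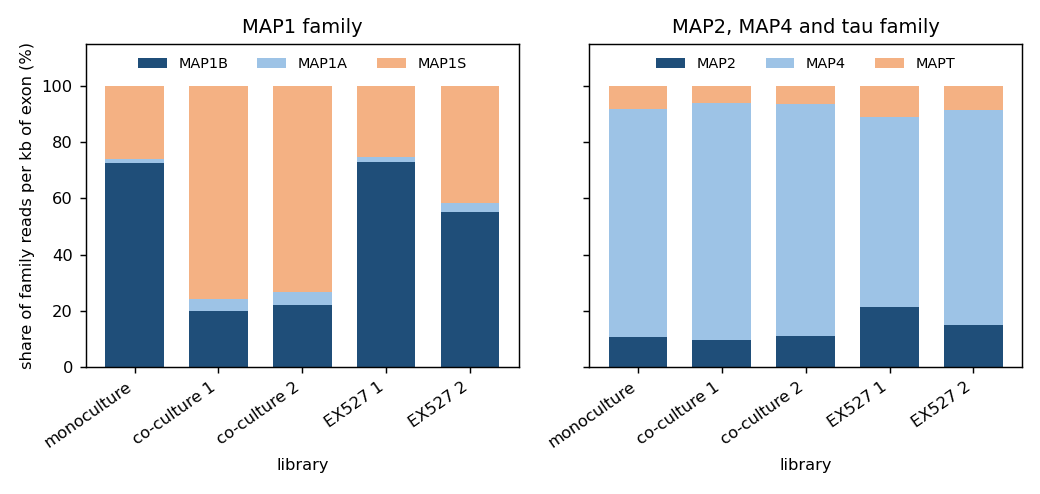
Share of each gene in its family's reads per kb of annotated exon, in percent, for every library. In the MAP1 family MAP1B held 19.8% and 22.2% in co-culture and 55.0% to 73.1% elsewhere, and in the other family MAP4 held 67.5% to 84.5% throughout.

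MAP2, MAP4 and tau form another family, joined by a shared tubulin-binding repeat region near the end of the protein. MAP2 (chromosome 2, 209424047 to 209734147) was read at 28.1 CPM in monoculture, 15.2 and 16.3 CPM in co-culture, and 29.2 and 33.9 CPM with EX527. Both EX527 libraries lay above monoculture and both co-culture libraries below it. The log2 fold change was -0.84 (SE 0.25) for co-culture against monoculture, 1.00 (SE 0.21) for EX527 against co-culture and 0.17 (SE 0.25) for EX527 against monoculture. MAPT, which encodes tau (chromosome 17, 45894527 to 46028334), was read at 32.5 CPM in monoculture, 14.6 and 14.8 CPM in co-culture, and 23.2 and 30.1 CPM with EX527. Its co-culture pair was the tightest of the 8 genes, with replicates 1.02-fold apart, and lay below every other library. Its values in the same order of comparisons were -1.14 (SE 0.27), 0.86 (SE 0.23) and -0.28 (SE 0.27). The antisense gene MAPT-AS1, which overlaps exons of MAPT, held 248 to 283 reads per library, against 648 to 1416 reads for MAPT.

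MAP4, the family's main member outside neurons (chromosome 3, 47850690 to 48089272), was read at 269.9 CPM in monoculture, 169.6 and 155 CPM in co-culture, and 116 and 219 CPM with EX527. Monoculture was the highest library, and the EX527 replicates lay on either side of the co-culture pair, 1.89-fold apart. MAP4 differed by -0.74 (SE 0.40) between co-culture and monoculture and by 0.05 (SE 0.34) between EX527 co-culture and co-culture. The latter was 0.44 without EX527 replicate 1 and -0.44 without replicate 2. MAP4 held 67.5% to 84.5% of its family's reads per kb in every library. MAP2 took 10.7% in monoculture, 9.59% and 11% in co-culture and 21.5% and 15.0% with EX527.

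MAP7, also called ensconsin, binds microtubules in epithelial cells and recruits the motor kinesin-1. The gene (chromosome 6, 136342281 to 136550819) was read at 68.5 CPM in monoculture, 46.5 and 45.1 CPM in co-culture, and 48.4 and 50.6 CPM with EX527. All 4 co-culture libraries, with or without EX527, lay between 45.1 and 50.6 CPM, below monoculture. The log2 fold change was -0.58 (SE 0.22) for co-culture against monoculture, 0.11 (SE 0.18) for EX527 against co-culture and -0.47 (SE 0.22) for EX527 against monoculture.

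STMN1, the tubulin-sequestering stathmin (chromosome 1, 25884181 to 25906991), was read at 271 CPM in monoculture, 494 and 470.1 CPM in co-culture, and 225 and 202 CPM with EX527. The co-culture pair was the highest and the EX527 pair the lowest, with no overlap. STMN1 was 1.78-fold higher in co-culture than in monoculture (log2 fold change 0.83, SE 0.23) and 2.26-fold lower with EX527 than in co-culture without it (-1.18, SE 0.18). Against monoculture the EX527 libraries differed by -0.34 (SE 0.22).

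**Figure D3:**
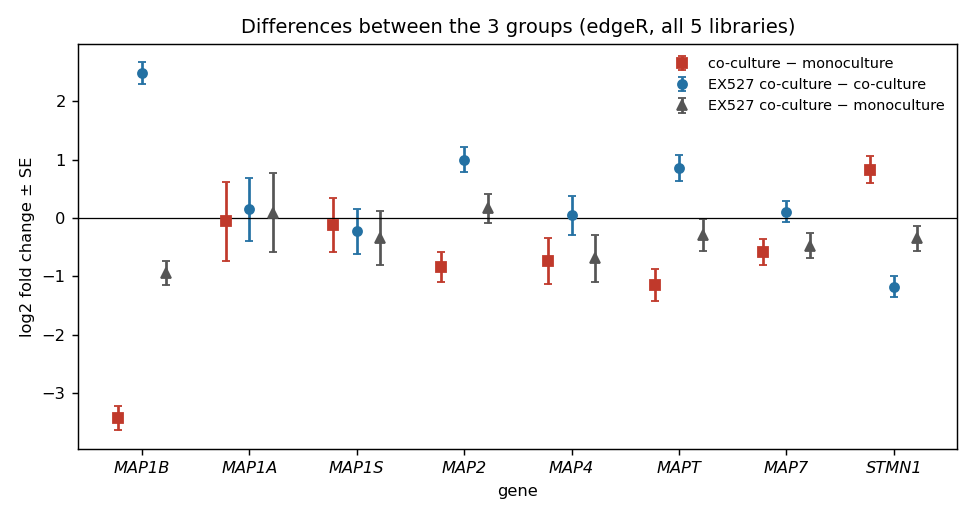
Log2 fold changes with SE of the 8 genes for the 3 comparisons, which share libraries with each other, from the fit over all 5 libraries. MAP1B spanned -3.43 to 2.48, MAP2 and MAPT reached 1.00 and 0.86 with EX527, and STMN1 had the opposite signs for both comparisons that involve co-culture without EX527.

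Counted by a fixed size, 2 of the 8 genes (MAP1B and MAP2) were higher with EX527 than in co-culture by 2-fold or more with libraries that did not overlap, as were 17% of all genes tested, and 1 (STMN1) was lower, as were 9.3%. MAP2 sat just inside that limit at 1.00 and MAPT just outside it at 0.86. In co-culture against monoculture 2 (MAP1B and MAPT) were lower and none was higher, where 16% and 17.5% of all genes were. With EX527 against monoculture none passed in either direction, where 19.2% of all genes were higher and 5.5% lower. With edgeR's quasi-likelihood test on all 5 libraries no gene in the table was called at an adjusted p of 0.05 in any of the 3 comparisons (0%), although 6702, 5526 and 2555 genes had an unadjusted p under 0.05, in the order EX527 against co-culture, co-culture against monoculture and EX527 against monoculture. The DESeq2 Wald test called 3339, 2432 and 100.

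Set in order of RPKM over all annotated exons, STMN1 led in every library, at 32.3 to 79.1 RPKM, and MAP1A came last, at 0.269 to 0.780 RPKM. MAP1B ranked 5 of the 8 in both co-culture libraries, at 2.15 and 2.27 RPKM, behind MAP4 at 11.3 and 10.3, MAP7 at 8.54 and 8.28 and MAP1S at 8.23 and 7.49 RPKM. In monoculture MAP1B ranked 2 at 23.8 RPKM, ahead of MAP4 at 18.0 and MAP7 at 12.6 RPKM. With EX527 it was read at 12.6 and 12.1 RPKM, where MAP4 lay at 7.74 and 14.6 and MAP7 at 8.88 and 9.29 RPKM, so MAP1B and MAP4 did not separate beyond the spread of replicates. MAP2 and MAPT stayed lower, at 1.28 to 2.87 and 0.792 to 1.76 RPKM. Where the canonical transcript set the length, MAPT ranked above MAP2 in every library, MAP1B ranked 3 in monoculture and 5 in EX527 replicate 2, and STMN1 and MAP1A kept their places.

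The genes whose pattern lay nearest to that of MAP1B were found by the root mean square difference of log2 CPM, each gene centred on its mean over the 5 libraries, among 13544 named genes averaging 2 or more in log2 CPM. KIF5C, a neuronal heavy chain of the motor kinesin-1, was the nearest at 0.12, where the median candidate lay at 1.48. KIF5C was read at 61.9 CPM in monoculture, 4.38 and 5.17 CPM in co-culture, and 26.6 and 28.2 CPM with EX527. Its log2 fold changes were -3.69 (SE 0.25) for co-culture against monoculture and 2.52 (SE 0.23) for EX527 against co-culture. The next were PDLIM3, a protein of the actin cytoskeleton, at 0.215, the forkhead factor FOXC1 at 0.231, the homeobox gene HOXB7 at 0.244, the mitochondrial phospholipase PLD6 at 0.255 and the secreted guidance protein SEMA3C at 0.258. Among 157 genes of the microtubule lists at that level the nearest were EML6 at 0.397, the kinase BRSK2 at 0.533, the beta-tubulin TUBB2B at 0.603 and CLIP4 at 0.635. Of the other 7 genes described here, MAPT at 0.947 and MAP2 at 0.997 were nearest and STMN1 at 1.90 was farthest. Such distances rest on 5 libraries in 3 groups and say how alike the profiles were and nothing more.

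**Figure D4:**
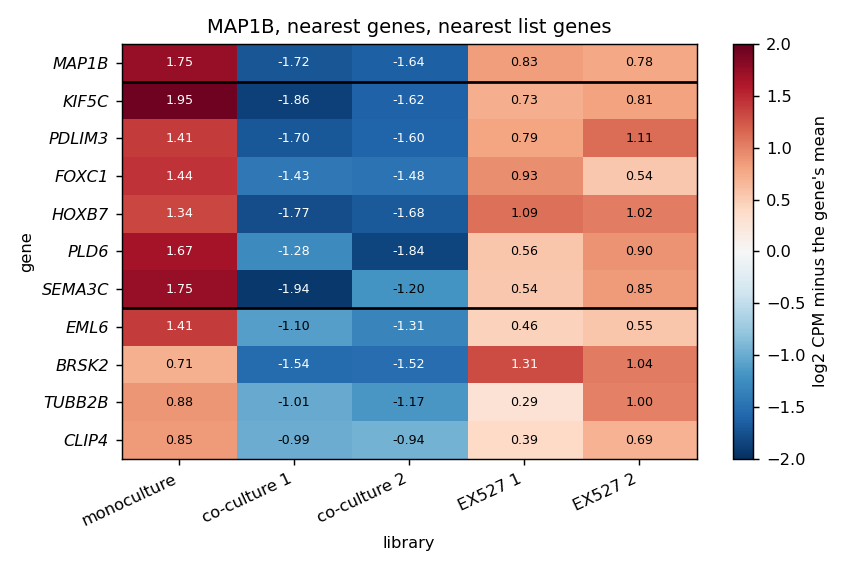
Log2 CPM minus each gene's own mean, by library, for MAP1B (top), the 6 genes nearest to it among all genes, and the 4 nearest among the microtubule lists (bottom). MAP1B ran from -1.72 in co-culture replicate 1 to 1.75 in monoculture, and every gene shown was lowest in both co-culture libraries.

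The rest of the microtubule machinery was counted over 11 lists holding 176 genes, of which 175 were tested. Since no gene passed with all 5 libraries, a list gene was counted as called when edgeR's quasi-likelihood test gave an adjusted p under 0.05 in the same direction whichever EX527 library was left out. Only the co-culture pair supplies the spread in those fits, so each single library is taken to vary as that pair does. Every call below rests on that assumption. For co-culture against monoculture both fits compare the same libraries, so passing both adds little to passing either. Counts per list below are to be read against the shares of all genes given in this paragraph. With a co-culture library omitted instead, no gene was called in any comparison. By the rule, 12.4% of 29169 genes were called higher and 16.7% lower for EX527 against co-culture, and 26% in each direction for co-culture against monoculture. Of 172 list genes testable in both fits, 31 were called higher and 51 lower with EX527 (median log2 fold change -0.19, all genes 0.15). In co-culture against monoculture 57 were called higher and 62 lower (median 0.03, all genes 0.05). Scaled by library size alone, the median with EX527 took the other sign over all 11 lists (0.10) and for the folding (0.08), modification (0.11), kinase (0.21) and MAP1 regulator (0.12) lists, where that of all genes was 0.42. For EX527 against monoculture 10 of 172 were called higher and 56 lower, where 5.5% and 14.1% of all genes were. By the 2-fold rule 13 of 175 were higher and 10 lower, against 19.2% and 5.5% of all genes. Without EX527 replicate 1, where fewer genes could be tested, the EX527 against co-culture median was -0.04 over all 11 lists, -0.03 for folding, -0.04 for modification, -0.04 for minus ends, 0.21 for plus ends and 0.29 for lattice binding.

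Tubulin genes, the building blocks, split by isotype. With EX527 against co-culture 4 of 18 were called higher and 6 lower (median -0.49). In co-culture against monoculture 7 were called higher and 4 lower (median 0.14). TUBA1B, the most abundant alpha-tubulin here, was read at 1610 CPM in monoculture, 4120 and 3671 CPM in co-culture, and 1208 and 2101 CPM with EX527. TUBB, the main beta-tubulin, was read at 779.9 CPM, then 1616 and 1456 CPM, then 419 and 729.7 CPM. Both were called higher in co-culture and lower with EX527, as were TUBA1A and TUBA1C. TUBB2B, a beta-tubulin of developing neurons, was lowest in co-culture, at 153 CPM in monoculture, 41.3 and 36.9 CPM in co-culture, and 102 and 167 CPM with EX527. TUBA4A was read at 42.1 CPM, then 16.2 and 13.5 CPM, then 43.4 and 50.1 CPM. Both were called lower in co-culture and higher with EX527. TUBB3, a beta-tubulin used as a neuronal marker, was read at 24.3 CPM in monoculture, 53.2 and 47.9 CPM in co-culture, and 27.9 and 44.4 CPM with EX527. It was called higher in co-culture than in monoculture and was not called with EX527 (-0.48, SE 0.28). Tubulin genes are nearly identical in parts and have pseudogenes, so reads shared between copies make their counts uncertain.

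**Figure D5:**
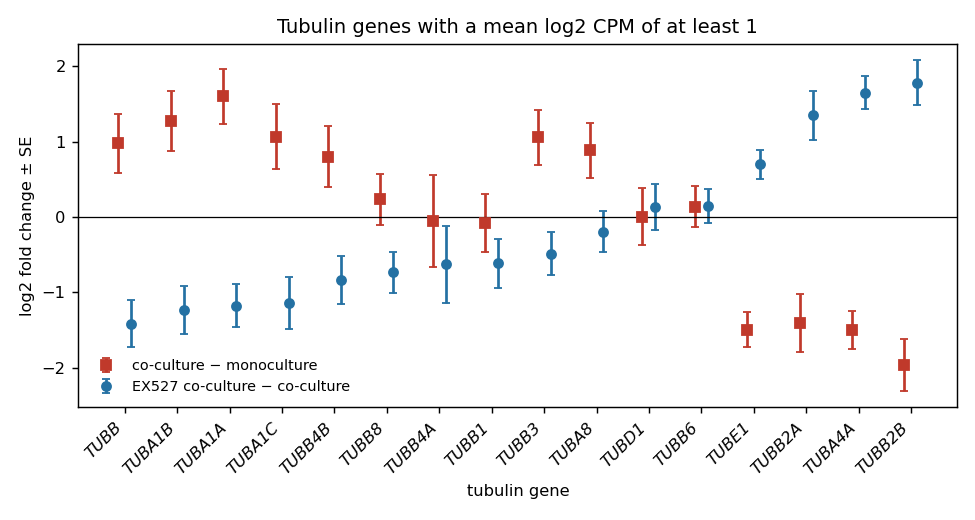
Log2 fold changes with SE of the 16 tubulin genes averaging 1 or more in log2 CPM, for co-culture against monoculture and for EX527 co-culture against co-culture, which share the co-culture libraries. TUBB stood at 0.98 and -1.42 in those comparisons, and TUBB2B at -1.97 and 1.78.

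Tubulin-folding cofactors, which assemble the dimer, numbered 8. With EX527 2 were called lower and none higher (median -0.18), namely TBCD at -1.45 (SE 0.28) and ARL2 at -0.84 (SE 0.20). In co-culture against monoculture 4 were called higher and 1 lower (median 0.24), with TBCD at 1.33 (SE 0.36). Among the stathmins beside STMN1, STMN3 was read at 5.03 CPM in monoculture, 25.8 and 20.1 CPM in co-culture, and 6.85 and 11.2 CPM with EX527. It was called higher in co-culture and lower with EX527. STMN2 and STMN4 were at or below 1.25 CPM in every library. The list's median of 2.42 for EX527 against co-culture and -1.02 for co-culture against monoculture rested on those low genes, and the former was -0.999 without EX527 replicate 1, and the latter 0.50.

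Proteins that bind along the microtubule held 10 called higher and 4 called lower of 28 with EX527 (median 0.46), and 5 called higher and 14 lower in co-culture (median -0.28). EML6, of a family that binds tubulin through repeated domains, was read at 39.5 CPM in monoculture, 6.90 and 5.95 CPM in co-culture, and 20.4 and 21.8 CPM with EX527. MAP1LC3B, best known as the autophagy protein LC3B and named for its binding to MAP1 proteins, was read at 140.9 CPM, then 48.4 and 49.5 CPM, then 110.3 and 117 CPM. DPYSL5, a collapsin response mediator protein, was read at 3.20 CPM, then 0.899 and 0.862 CPM, then 5.08 and 5.75 CPM. All 3 were called lower in co-culture and higher with EX527. EML3 and EML4, of the same family as EML6, went the other way with EX527. EML3 was read at 15.6 CPM in monoculture, 33.8 and 36.9 CPM in co-culture, and 13.0 and 25.7 CPM with EX527. Its log2 fold changes over all 5 libraries were 1.18 (SE 0.47) in co-culture and -0.875 (SE 0.36) with EX527. Those of EML4 were 0.12 (SE 0.26) and -0.55 (SE 0.21). The neuronal lattice protein DCX was at or below 0.92 CPM in every library.

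At microtubule plus ends 5 of 19 genes were called higher and 4 lower with EX527 (median 0.06, or -0.07 without EX527 replicate 2). In co-culture 3 were called higher and 12 lower (median -0.41). CLIP4, a linker protein, was read at 89.0 CPM in monoculture, 24.8 and 25.6 CPM in co-culture, and 64.8 and 79.8 CPM with EX527. NAV2, which also binds growing ends, was highest in co-culture, at 51.4 CPM, then 126.5 and 120.0 CPM, then 34.9 and 43.0 CPM. The polymerase CKAP5 was called lower with EX527 (-0.94, SE 0.33), from 239 and 232 CPM to 85.9 and 160.0 CPM. The end-binding protein MAPRE1 was not called in either comparison, with 87.7 to 118 CPM over all libraries.

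At minus ends and nucleation sites 1 of 16 genes was called higher (TUBG2, a gamma-tubulin, at 0.94, SE 0.21) and 3 lower with EX527 (median -0.31), while 5 were called higher and 4 lower in co-culture (median 0.17). MZT1, a small subunit of the nucleating complex, was called lower in co-culture (-1.64, SE 0.34), at 175.5 CPM in monoculture against 58.4 and 54.3 CPM. Of 9 severing genes 3 were called lower and none higher with EX527 (median -0.29), among them spastin (SPAST) at -0.46 (SE 0.19). In co-culture 3 were called in each direction (median -0.04), with KATNAL2 at 1.51 (SE 0.26) and FIGN at -1.52 (SE 0.25).

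Enzymes that modify tubulin held 2 called higher and 5 lower of 21 with EX527 (median -0.18), and 10 called higher and 5 lower in co-culture (median 0.33). Alpha-tubulin is acetylated by ATAT1 and deacetylated by HDAC6 and SIRT2, a relative of the inhibitor's target. ATAT1 was read at 24.7 CPM in monoculture, 30.5 and 31.5 CPM in co-culture, and 16.5 and 21.3 CPM with EX527. HDAC6 was read at 62.1 CPM, then 82.0 and 79.9 CPM, then 27.4 and 68.4 CPM. SIRT2 was read at 19.99 CPM, then 25.7 and 26.5 CPM, then 17.0 and 31.2 CPM. Over all 5 libraries the log2 fold change with EX527 was -0.72 (SE 0.22) for ATAT1, -0.76 (SE 0.45) for HDAC6 and -0.12 (SE 0.33) for SIRT2. In co-culture against monoculture it was 0.33 (SE 0.28), 0.38 (SE 0.55) and 0.39 (SE 0.42) in that order. SIRT1 itself was read at 42.7 CPM in monoculture, 30.3 and 32.9 CPM in co-culture and 26.2 and 29.7 CPM with EX527, and its transcript level does not report on inhibition of the enzyme.

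Kinases that phosphorylate microtubule-associated proteins, and activator subunits of the kinase CDK5, made a list of 20 genes. Its median was -0.05 with EX527 (0.10 without EX527 replicate 1) and -0.32 in co-culture. By the 2-fold rule 2 were higher and none lower with EX527, where 17% and 9.3% of all genes were. In co-culture none was higher and 5 were lower, where 17.5% and 16% of all genes were. The rule of calls stated above counted more of these genes in each direction, in both comparisons. How this list stands against all genes therefore depends on the rule. Its log2 fold changes were positive in 9 genes and negative in 11 with EX527, and likewise 9 and 11 in co-culture. BRSK2, a tau kinase of neurons, was read at 6.92 CPM in monoculture, 1.42 and 1.44 CPM in co-culture, and 10.5 and 8.73 CPM with EX527. GSK3B, which phosphorylates both tau and MAP1B, was read at 163 CPM, then 70.1 and 69.0 CPM, then 72.0 and 82.1 CPM, and was called lower in co-culture (-1.23, SE 0.22) and not called with EX527 (0.15, SE 0.18). Among 6 partners and regulators of MAP1 proteins 2 were called higher and 1 lower with EX527 (median -0.14, or 0.07 without EX527 replicate 1), and 5 were called lower in co-culture with none higher (median -0.64). FMR1, whose protein represses translation of MAP1B mRNA, was read at 70.7 CPM, then 57.0 and 55.2 CPM, then 35.3 and 42.8 CPM. Its log2 fold changes over all 5 libraries were -0.33 (SE 0.24) in co-culture and -0.52 (SE 0.20) with EX527.

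Microtubule-associated proteins of the mitotic spindle held 18 called lower and 1 called higher of 25 with EX527 (median -1.13), and 14 called higher and 4 lower in co-culture (median 0.41). TPX2, a spindle assembly factor, was read at 155 CPM in monoculture, 260 and 256 CPM in co-culture, and 56.2 and 94.9 CPM with EX527. TACC3, which crosslinks spindle fibres, was read at 157 CPM, then 297 and 296 CPM, then 72.9 and 107 CPM. In both genes, as in STMN1, the co-culture pair was the highest and the EX527 pair the lowest. Without EX527 replicate 1 and without replicate 2 the list's median was -1.03 and -1.43.

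A list of 20 genes tied to neurons, including the repressors REST and RCOR1, was read beside MAP1B. Of 17 testable in both fits 7 were called higher and 1 (REST) lower with EX527 (median over 20 genes 1.11, or 0.86 without EX527 replicate 1), and 1 was called higher and 12 lower in co-culture (median -0.85), REST and RCOR1 among the latter. NRCAM, a neuronal adhesion molecule, was read at 56.9 CPM in monoculture, 14.9 and 15.9 CPM in co-culture, and 24.9 and 34.3 CPM with EX527. REST, the repressor of neuronal genes outside neurons, was read at 94.1 CPM, then 72.6 and 70.7 CPM, then 55.6 and 59.2 CPM. Its log2 fold changes over all 5 libraries were -0.39 (SE 0.22) in co-culture and -0.32 (SE 0.18) with EX527. Neurofilament genes NEFL and NEFM reached at most 1.66 CPM, in EX527 replicate 1.

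Markers named for fibroblasts, adipocytes and epithelium were read beside MAP1B. Monoculture was grown without adipocytes, and VIM, LPL and PPARG were read highest in it. COL1A1 and CFD were read highest in co-culture. From which cells the reads of these markers came was not tested. The summed level of 14 fibroblast and preadipocyte markers was 447 CPM in monoculture, 233.5 and 218 CPM in co-culture, and 276 and 487 CPM with EX527. With EX527 3 of 9 testable in both fits were called higher and 2 lower, and in co-culture 1 was called higher and 4 lower. The median over the list was 1.94 with EX527 and -0.98 in co-culture, and these were -0.26 and -0.22 without EX527 replicate 1. Vimentin (VIM) was read at 210.3 CPM in monoculture, 68.1 and 64.3 CPM in co-culture, and 141 and 176 CPM with EX527. The collagen gene COL1A2 was read at 122 CPM, then 20.8 and 20.4 CPM, then 70.3 and 189 CPM. Both were called lower in co-culture and higher with EX527, as was COL6A3. COL1A1 was read at 58.1 CPM, then 91.8 and 78.8 CPM, then 28.2 and 71.1 CPM. Its log2 fold changes over all 5 libraries were 0.55 (SE 0.57) in co-culture and -0.78 (SE 0.45) with EX527. In all, 10 of the 14 reached 1 CPM in some library, while THY1, LUM, POSTN and DLK1 stayed below it. The summed level of 15 adipocyte markers was 143 CPM in monoculture, 60.5 and 61.4 CPM in co-culture, and 87.8 and 108 CPM with EX527. LPL, a lipase, was read at 72.1 CPM, then 19.6 and 20.5 CPM, then 41.1 and 49.99 CPM. PPARG, the main regulator of fat cell differentiation, was read at 42.7 CPM, then 7.40 and 6.90 CPM, then 18.6 and 25.9 CPM. Both were lower in co-culture and higher with EX527, as MAP1B was. CFD went the other way, at 5.26 CPM, then 11.01 and 10.96 CPM, then 8.19 and 7.03 CPM. Over the 15 markers 7 log2 fold changes were positive and 8 negative in co-culture, and 9 were positive and 6 negative with EX527. In all, 9 of the 15 reached 1 CPM in some library, and ADIPOQ and FABP4 stayed at or below 0.90 CPM. The median over the adipocyte list was 0.45 with EX527 (0.69 without EX527 replicate 1) and -0.14 in co-culture. By the 2-fold rule 6 of 15 were higher and 1 lower with EX527, where 17% and 9.3% of all genes were. Among those 6, ADIPOQ, LEP and RETN were near the floor, at or below 0.90 CPM in every library. CIDEA, also among them, reached 2.19 CPM in EX527 replicate 1 and at most 0.234 CPM elsewhere. LPL and PPARG were the others. In co-culture 4 were higher and 3 lower, where 17.5% and 16% of all genes were. FABP4 and AQP7, of those higher, stayed at or below 0.62 CPM in every library, as did RETN, of those lower. Of 13 epithelial and endometrial markers 10 were called lower and none higher with EX527 (median -0.997, or -0.66 without EX527 replicate 1), and 10 were called higher and 2 lower in co-culture (median 0.85). The part of other cell types and of library quality in the MAP1B values was not tested. In bulk RNA, fewer cells of a kind and less RNA per cell cannot be told apart.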

How the data were processed

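Poly(A) RNA (500 ng of total RNA per sample, 12 PCR cycles) was sequenced in 5 libraries, per the series' design text and the labels' protocols. Reads were mapped with STAR v2 to GRCh38.p7, per the same text, and FastQC, MultiQC, fastp, featureCounts and DESeq2 appear in the submitters' processing notes. The annotation and strand setting: not given in the sources used here. The authors deposited raw read counts per gene, which were used here, and a normalized table, which was not. Libraries held 45653845 to 52269963 reads.

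Genes passing filterByExpr at a minimum count of 10 were TMM-scaled and fitted in R 4.3.3 with edgeR 4.0.16, with 1 coefficient per group over all 5 libraries and 2 residual degrees of freedom. Quasi-likelihood F-tests (edgeR 4 dispersion estimate) were adjusted by Benjamini and Hochberg over 34658 genes at 0.05. The SE of a fold change is its size divided by the root of F. Log2 CPM used a prior count of 2. limma 3.58.1 (voom) and DESeq2 1.42.0 gave alternatives, beside other scalings, no filter, the older dispersion estimate, a replicate block and each replicate left out. The fits were also run on simulated counts with the same dispersion in every group, lower than the common dispersion of 0.264 in the real fit. The real EX527 pair spread more than the co-culture pair, so that run does not measure how the fits perform here. Gene positions and exon lengths are those of GENCODE 44 (GRCh38), not necessarily the annotation behind the counts, and promoter sequences from RefSeq on GRCh38.p14, where 7 of the 8 genes matched.

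The members and 15 gene lists (11 of microtubule genes, 4 of cell type markers) were chosen with earlier results of these data known. Genes named were the members, fixed genes of interest, the 3 most abundant of each list, up to 2 per direction, list and comparison with the smallest p and libraries that do not overlap, and the genes nearest to MAP1B. NEFL, NEFM, ADIPOQ, FABP4, CIDEA, LEP, RETN, AQP7, COL6A3, THY1, LUM, POSTN, DLK1, FOXA2 and RCOR1 were named after their values were seen. Some results are not reported here.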

Additional observations from a re-analysis of the deposited data

How the results depend on the processing

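No gene passed edgeR's adjusted p of 0.05 with all 5 libraries, and the count did not change under DESeq2 size factors, library size alone, no filter or limma-voom. The older dispersion estimate called 21 genes for EX527 against co-culture and none in the other comparisons. The DESeq2 Wald test called 3339 genes for EX527 against co-culture, 2432 for co-culture against monoculture and 100 for EX527 against monoculture. With each replicate left out in turn the counts ran from 0 to 24078, 0 to 15861 and 0 to 21330 in that order, with 0 wherever a co-culture library was left out. With a replicate block over the 4 co-culture libraries 867 genes were called, and 3382 with the replicate numbers crossed, a pairing added after seeing the data. Same-numbered libraries did not deviate together (r = -0.363 across 11232 genes), so the numbers were not taken as pairs. The cause of these differences was not tested.

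With library size as the only scaling, the all-gene median went from 0.15 to 0.42 for EX527 against co-culture. Over 11 alternatives the log2 fold change of MAP1B in that comparison ran from 2.45 to 2.76, of MAP2 from 0.94 to 1.27, of MAPT from 0.70 to 1.12 and of STMN1 from -1.25 to -0.89. MAP1A, MAP1S and MAP4 took the other sign in 2, 2 and 3 of them. For co-culture against monoculture MAP1B ran from -3.52 to -3.39 over 10 alternatives, and all 8 genes kept their sign. At these depths 3 reads correspond to at most 0.0692 CPM, so genes near that level carry little precision.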
